A study of Mus musculus with 18 samples.

Results

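Glycolysis and the response to hypoxia were followed through 31 genes, taken from the files by an exact match of the gene symbol, out of 56748 genes listed. They comprised 14 glycolytic enzymes, 5 genes of transport and regulation, 3 genes of oxygen sensing and 9 other targets of the transcription factor HIF-1. The cells were RAW264.7 macrophages, a mouse line, in 6 conditions with 3 biological replicates each, so 18 libraries in all. Control cells received no treatment. TBHQ cells received 5 µM tert-butylhydroquinone for 4 h and were collected then. LPS cells received lipopolysaccharide at 0.1 µg/mL for 12 h, and PIC cells received polyinosinic-polycytidylic acid at 20 µg/mL for 12 h. In the LPS+TBHQ and PIC+TBHQ cells, 4 h with 5 µM TBHQ came before the 12 h with the stimulus. TBHQ alone was therefore collected at another time than the stimulated cells. The study's design lists the control, in media only, beside the 12 h stimuli, but gives no harvest time for it. In the comparison of TBHQ with the control, TBHQ and the time of harvest therefore cannot be told apart. TBHQ was dissolved in DMSO, and no vehicle is described for the control, LPS or PIC cells of the sequencing experiment. In each comparison with TBHQ, TBHQ and its solvent thus cannot be told apart. Whether the cells with a stimulus alone also had 4 h of culture before it is not described.

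Glycolysis splits glucose into pyruvate, and most of the pyruvate can leave the cell as lactate when glycolysis runs fast. HIF-1 is made of an oxygen-regulated subunit, encoded by Hif1a, and a constant partner, and prolyl hydroxylases mark the regulated subunit for breakdown while oxygen is present. HIF-1 is known to act on the genes of glucose uptake, of most glycolytic steps and of its own hydroxylases, and in macrophages activated by bacterial products glycolysis is known to increase.

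The 7 macrophage markers chosen for the check were all present, with a summed level of 4466 FPKM on average in PIC to 5536 in the control and Lyz2 as the most abundant. This sum is carried by Lyz2, and single markers moved apart. In PIC against the control Adgre1 had a log2 fold change (log2FC) of 1.86, Itgam 1.25 and Ptprc 0.51, while Csf1r had -0.85 and Lyz2 -0.40. The defining markers of T, B, epithelial, fibroblast and endothelial cells were at or near 0, the granulocyte marker Ly6g was at 0, and S100a8, which macrophages can also express, had a level between 0.454 (TBHQ) and 5.59 FPKM (PIC). The treatments were visible in the genes chosen to check them. Ptgs2, the inducible cyclooxygenase, had a log2FC of 4.25 in LPS and 5.80 in PIC against the control, and Gclm, a subunit of the enzyme that makes the glutathione precursor, had 1.82 in TBHQ against the control. Neither gene was particular to its treatment. Against the control, Ptgs2 also rose in TBHQ alone (1.35), and Gclm also rose in LPS (0.93) and PIC (0.72). All log2FC and FDR values come from the quasi-likelihood test of edgeR on counts, adjusted by the Benjamini-Hochberg method over 13691 genes tested, and ± gives the standard error of the difference between the mean log2 CPM (counts scaled to library size) of 3 libraries each. Fewer RAW264.7 cells with a transcript and less of it per cell cannot be told apart in these bulk libraries.

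The levels of the members differed widely. All FPKM values here are as deposited and hold a constant for each library that differs between conditions, so that they carry a scaling between conditions. Averaged over all libraries, Pkm (1051 FPKM), Pgk1 (851), Aldoa (745), Ldha (659), Pgam1 (406), Tpi1 (395) and Eno1 (368) had the highest levels, all of them enzymes that act from the aldolase step to lactate. Slc2a1 followed with 157 FPKM. In the deposited values Gapdh was 19th with 26.6 FPKM and had uneven counts, as described below. In the control it had 8.64 FPKM on average, where Tpi1 had 419. Whether this low value stands for the level of the Gapdh transcript was not tested. At the lower end were Adm (1.09 FPKM), P4ha2 (0.201) and Egln3 (0.0113). Egln3, a prolyl hydroxylase, had 0 to 3 counts per library and 8 in all, and was the 1 member not tested, so that 30 of 31 were. Together the members made up 1.67% to 2.15% of the counts of a library.

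Against the control, both stimuli raised most of the members, and TBHQ given before the stimulus lowered most of them. In LPS, 19 of 30 members rose and 2 fell, where 24.0% of all genes tested rose and 24.1% fell, and in PIC 26 rose and 2 fell, where 28.6% of all genes rose and 30.1% fell. In LPS+TBHQ against LPS, 5 members rose and 18 fell (11.7% and 12.2% of all genes), and in PIC+TBHQ against PIC 4 rose and 21 fell (15.8% and 15.5% of all genes). In TBHQ against the control, 1 member rose and 21 fell (14.2% and 14.8% of all genes). Median log2FC of the members was 0.35 in LPS, 0.44 in PIC, -0.19 in LPS+TBHQ against LPS, -0.24 in PIC+TBHQ against PIC and -0.29 in TBHQ, and that of all genes tested lay between -0.01 and 0.01. The 3 comparisons with the control share the control libraries, and each comparison with TBHQ shares its stimulated libraries with the comparison of that stimulus with the control, where they stand on the other side. Part of the opposite directions is thus built into the shared libraries, and this part was not tested.

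Most of these changes were small. With the stricter rule of an FDR below 0.01 and a log2FC beyond 2 in either direction, 0 members rose and 0 fell in LPS (1.34% and 0.292% of all genes). In PIC 2 members, Adm and Gapdh, rose and 0 fell (2.70% and 0.869% of all genes), and Gapdh did not pass without PIC replicate 3 (0.92). In TBHQ against the control 1 member, P4ha2, fell by this rule and 0 rose (0.110% of all genes fell and 0.0803% rose). The scaling between libraries mattered for the smallest changes. When libraries were scaled by their total counts (total library size) and not by TMM factors, the median of all genes moved to -0.09 in LPS, -0.23 in PIC and -0.14 in PIC against LPS. The split of all genes into higher and lower then went from 3283 and 3306 to 2454 and 4558 in LPS, and from 3917 and 4120 to 2379 and 6635 in PIC. With this scaling 18 members rose and 5 fell in LPS, and 19 rose and 6 fell in PIC. For the comparisons with TBHQ it gave 2061 genes higher and 1401 lower in LPS+TBHQ against LPS (1601 and 1673 with TMM) and 3398 and 1436 in PIC+TBHQ against PIC (2167 and 2118 with TMM), with 6 members higher and 18 lower, and 6 higher and 19 lower.

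**Figure D1:**
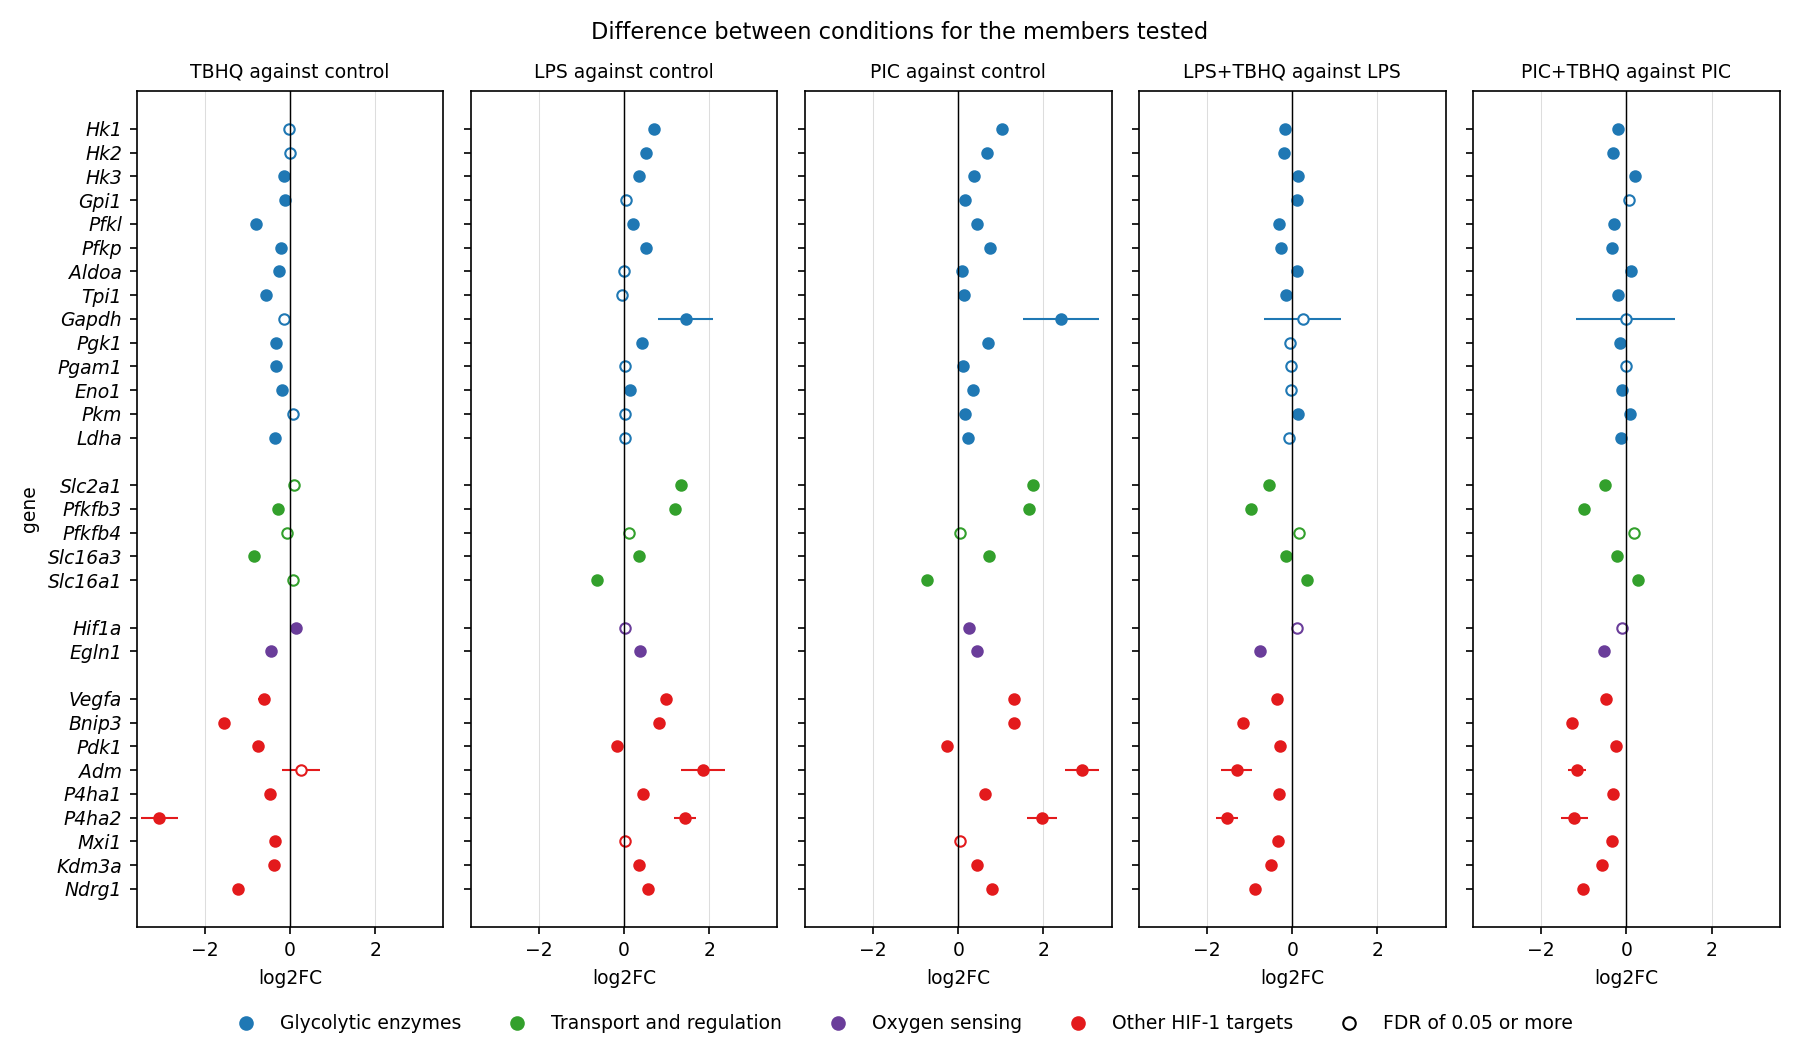
Log2 fold change of the 30 tested members in 5 comparisons, with bars for the standard error (3 libraries in each condition), coloured by role, and filled points have an FDR below 0.05 in the quasi-likelihood test of edgeR. With total library size as the scaling, the PIC values of Gpi1, Aldoa, Tpi1, Pgam1, Pkm, Mxi1 and Pfkfb4 and the LPS values of Gpi1, Pgam1, Pkm, Ldha, Hif1a and Mxi1 turn from above 0 to below 0, those of Pgam1 and Gapdh in PIC+TBHQ turn from below to above 0, and with RLE factors that of Aldoa in LPS does too.

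Among the genes of transport and regulation, 3 of 5 rose and 1 fell in each stimulus. Of all genes, 24.0% rose and 24.1% fell in LPS, and 28.6% and 30.1% in PIC. With TBHQ before the stimulus 3 fell and 1 rose in both. Of all genes, 12.2% fell and 11.7% rose before LPS, and 15.5% and 15.8% before PIC. Slc2a1 (ENSMUSG00000028645, chromosome 4, 118965908 to 118995180) encodes the glucose transporter GLUT1. Its levels were 82, 77.2 and 74.2 FPKM in the control, 202, 183 and 208 in LPS and 138, 132 and 139 in LPS+TBHQ. They were 272, 267 and 254 FPKM in PIC, 192, 181 and 179 in PIC+TBHQ and 82, 82.2 and 84.9 in TBHQ. Every stimulated library lay above every control library, every library with TBHQ before the stimulus lay between the control and that stimulus alone, and TBHQ alone overlapped the control. Slc2a1 rose in LPS (log2FC 1.34 ± 0.068, FDR = 9.4e-25) and in PIC (1.75 ± 0.0535, FDR = 1.2e-28). It fell in LPS+TBHQ against LPS (-0.54 ± 0.0585, FDR = 5.3e-13) and in PIC+TBHQ against PIC (-0.51 ± 0.0438, FDR = 1.2e-12). In TBHQ alone it had a log2FC of 0.09, FDR = 0.0972, and it passed the threshold there without LPS replicate 2 (0.10) or without control replicate 1 (0.13).

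Pfkfb3 (ENSMUSG00000026773, chromosome 2, 11476244 to 11558888) encodes the enzyme that makes fructose 2,6-bisphosphate, an activator of phosphofructokinase. It had 5.49, 4.55 and 5.41 FPKM in the control, 12.7, 11.9 and 10.8 in LPS and 6.16, 6.08 and 5.74 in LPS+TBHQ. In PIC it had 17.7, 16.9 and 14.7 FPKM, in PIC+TBHQ 8.03, 8.13 and 8.31 and in TBHQ 4.48, 4.40 and 3.98. Both stimuli stood apart from the control in all libraries, and TBHQ brought the LPS libraries close to the control level while the PIC libraries kept a level above it. Pfkfb3 rose in LPS (log2FC 1.19 ± 0.108, FDR = 6.2e-17) and PIC (1.66 ± 0.118, FDR = 1.0e-21), and fell by 0.98 with TBHQ before LPS (FDR = 3.3e-14) and by 1.00 with TBHQ before PIC (FDR = 6.4e-15). Its fall in TBHQ alone (-0.27, FDR = 0.00647) was lost without TBHQ replicate 3 (-0.21). Pfkfb4, a second enzyme of this family, passed the threshold in 0 of the 7 comparisons, with log2FC of 0.16 and 0.17 for TBHQ before LPS and PIC, the first of which passed without LPS replicate 3 (0.23) and the second with total library size. With that scaling Pfkfb4 also passed as lower in PIC against LPS (-0.20).

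The 2 lactate carriers went in opposite directions. Slc16a1 (ENSMUSG00000032902, chromosome 3, 104545984 to 104565778) encodes MCT1, which moves lactate and pyruvate with protons in either direction. Its levels were 52.1, 54.3 and 51.5 FPKM in the control, 32, 34.7 and 35.6 in LPS and 43.4, 43.1 and 43.5 in LPS+TBHQ. In PIC they were 30.6, 30.2 and 34.4, in PIC+TBHQ 37.7, 37.3 and 39.2 and in TBHQ 54.9, 55.3 and 55 FPKM. The control and TBHQ libraries were the highest, the libraries with a stimulus alone the lowest, and those with TBHQ before the stimulus lay in between with no overlap with either. Slc16a1 fell in LPS (log2FC -0.63 ± 0.0542, FDR = 9.3e-15) and PIC (-0.74 ± 0.0626, FDR = 5.8e-17) and rose with TBHQ before LPS (0.34 ± 0.049, FDR = 1.2e-07) and before PIC (0.27 ± 0.0628, FDR = 8.4e-06). Slc16a3 encodes MCT4, known for the export of lactate from cells with fast glycolysis. It rose in LPS (log2FC 0.35, FDR = 1.4e-08) and PIC (0.73, FDR = 4.8e-17), and fell with TBHQ before LPS (-0.16, FDR = 0.00367), before PIC (-0.23, FDR = 6.6e-05) and in TBHQ alone (-0.84, FDR = 2.6e-17).

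**Figure D2:**
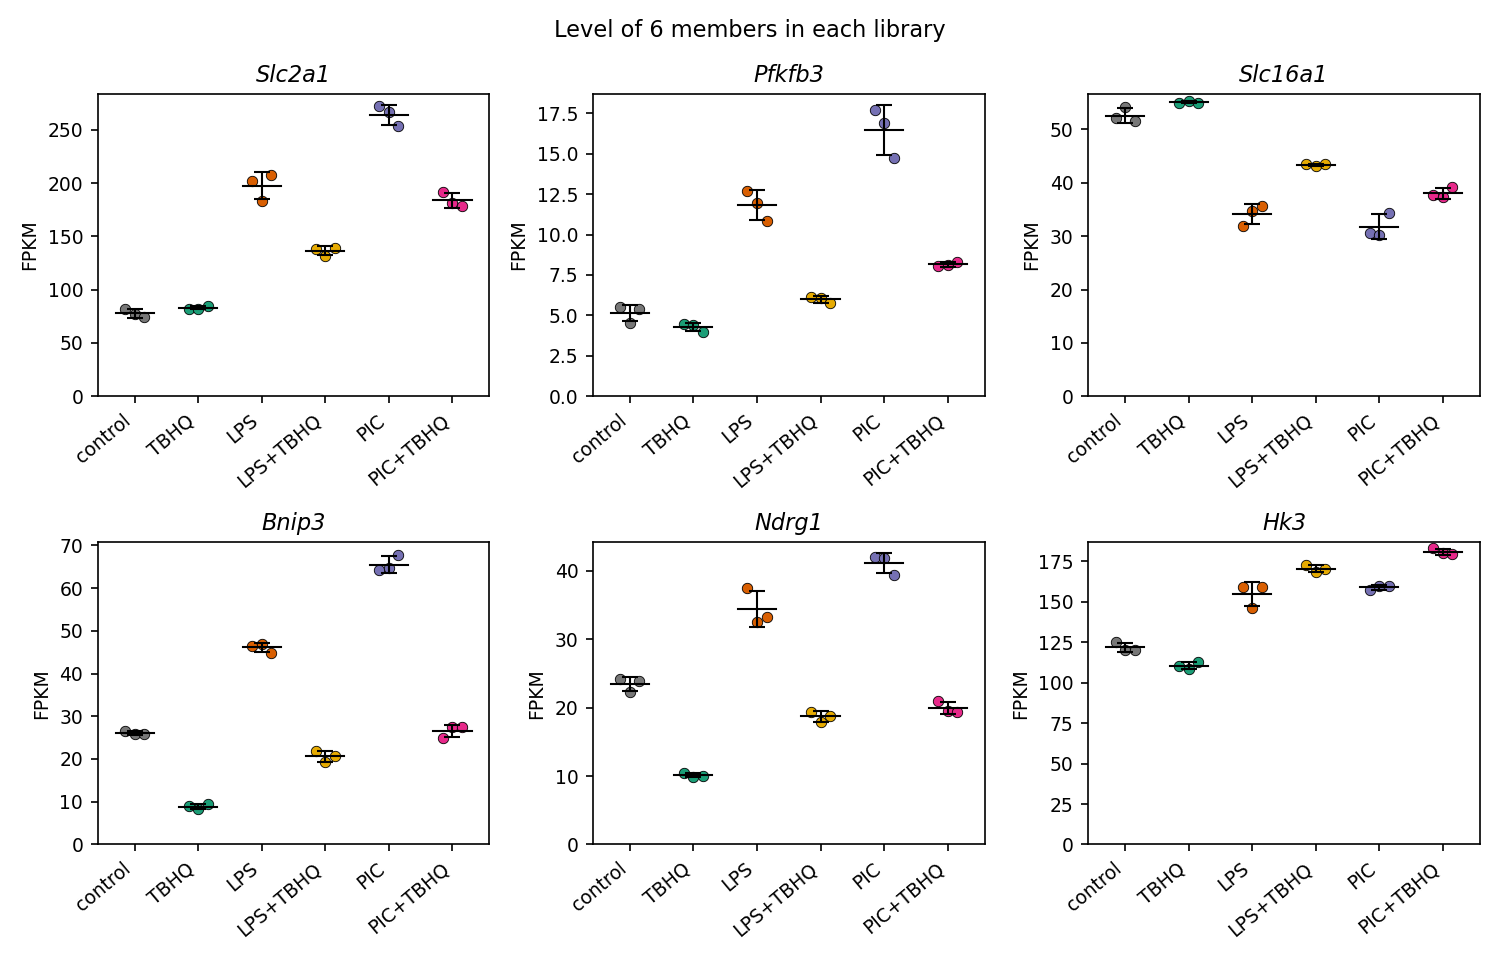
FPKM in each library of Slc2a1, Pfkfb3, Slc16a1, Bnip3, Ndrg1 and Hk3 in the 6 conditions, where points are libraries, lines are means and bars are standard deviations (n = 3). With total library size as the scaling, the log2FC of Hk3 in PIC against LPS turns from 0.03 to -0.10.

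All 14 glycolytic enzymes rose in PIC, 8 rose in LPS and 0 fell in either. Of all genes tested, 28.6% rose and 30.1% fell in PIC, and 24.0% rose and 24.1% fell in LPS. Gapdh is among the enzymes called in both, and its calls were lost without PIC replicate 3 and without LPS replicate 1, as described below. With total library size Aldoa (-0.09), Tpi1 (-0.12) and Ldha (-0.07) fell in LPS, and some enzymes fell in PIC, as given below. The changes were mostly small, with a median log2FC of 0.17 in LPS and 0.35 in PIC, which became 0.09 and 0.13 with total library size. Among the larger values, apart from Gapdh, were those of the hexokinases Hk1 and Hk2, which trap glucose as its phosphate, and of the phosphofructokinase subunit Pfkp, part of the committed step. In PIC against the control these were 1.02, FDR = 1.7e-22 for Hk1, 0.68, FDR = 3.2e-16 for Hk2 and 0.75, FDR = 2.1e-19 for Pfkp. In LPS the values were 0.71, FDR = 1.6e-17, 0.51, FDR = 1.8e-12 and 0.51, FDR = 2.9e-14. Pfkl, the liver-type subunit, rose by 0.21 in LPS and 0.43 in PIC, and Pgk1, the first enzyme of the pathway that yields ATP, by 0.43 and 0.69. Further down the pathway, Eno1 (enolase) rose by 0.13 in LPS, a call lost with total library size (0.05), and by 0.34 in PIC. Ldha, a subunit of lactate dehydrogenase, rose by 0.24 in PIC, a call lost with total library size (0.02), and had 0.02 in LPS, which turned to -0.07 with that scaling. Gpi1, Aldoa, Tpi1, Pgam1 and Pkm rose in PIC by 0.16, 0.10, 0.14, 0.12 and 0.17, but with total library size as the scaling these 5 values were -0.06, -0.12, -0.07, -0.10 and -0.05. The rise of these 5 enzymes in PIC thus depended on the scaling. With total library size 6 members were lower in PIC, where 2 were with TMM factors, and some of these 5 enzymes were among the 6.

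With TBHQ before the stimulus, the glycolytic enzymes went both ways. In LPS+TBHQ against LPS 4 rose and 5 fell (11.7% and 12.2% of all genes) with a median of -0.04. In PIC+TBHQ against PIC 3 rose and 8 fell (15.8% and 15.5% of all genes) with a median of -0.12. Hk1, Hk2, Pfkl, Pfkp and Tpi1 fell in both, by 0.14 (Tpi1) to 0.32 (Pfkl) before LPS and by 0.19 (Hk1 and Tpi1) to 0.33 (Pfkp) before PIC. Eno1, Ldha and Pgk1 fell before PIC, by 0.10, 0.13 and 0.14, and the fall of Eno1 was lost when the counts of its near copy Eno1b were added, a step chosen after seeing the data (-0.07). The falls of Eno1 and Ldha before PIC were also lost with total library size (-0.03 and -0.06).

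Hk3 (ENSMUSG00000025877, chromosome 13, 55153798 to 55169198), a hexokinase of blood cells, was higher with the stimulus and higher still with TBHQ before it. It had 125, 120 and 120 FPKM in the control, 159, 146 and 159 in LPS and 172, 168 and 170 in LPS+TBHQ. In PIC it had 157, 159 and 160, in PIC+TBHQ 183, 180 and 179 and in TBHQ 110, 108 and 112 FPKM. TBHQ alone gave the lowest libraries, the control came next, and all libraries of PIC+TBHQ and LPS+TBHQ lay above all those of PIC and LPS. Hk3 rose in LPS (log2FC 0.34 ± 0.044, FDR = 5.7e-11), in PIC (0.37 ± 0.021, FDR = 4.4e-12), with TBHQ before LPS (0.14 ± 0.0405, FDR = 0.00162) and with TBHQ before PIC (0.20 ± 0.0114, FDR = 9.2e-06), and fell in TBHQ alone (-0.14 ± 0.0248, FDR = 9.0e-04).

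Pkm (ENSMUSG00000032294, chromosome 9, 59563651 to 59586658), which encodes pyruvate kinase and had the highest level of all members, moved little. Its levels were 1014, 935 and 939 FPKM in the control, 988, 1026 and 1024 in TBHQ and 1018, 954 and 1001 in LPS. They were 1085, 1077 and 1118 FPKM in LPS+TBHQ, 1107, 1101 and 1077 in PIC and 1168, 1159 and 1127 in PIC+TBHQ. The control, TBHQ and LPS overlapped, and the libraries with TBHQ before a stimulus lay above those with the same stimulus alone. In TBHQ alone Pkm had a log2FC of 0.07, FDR = 0.0702, and it passed as higher with DESeq2 (0.08), with the compared conditions only (0.07), with no filter (0.07), and without LPS replicate 2 (0.08), LPS replicate 3 (0.08), PIC replicate 3 (0.08), TBHQ replicate 1 (0.09) or control replicate 1 (0.11). Pkm rose with TBHQ before LPS (log2FC 0.14 ± 0.0313, FDR = 4.5e-04) and before PIC (0.08 ± 0.02, FDR = 0.0301). The rise before PIC was lost with DESeq2 (0.07), RLE factors (0.07), limma (0.07), a mean of at least 50 counts (0.06), an FDR below 0.01 and without any of 7 libraries (LPS replicates 2 and 3, PIC replicates 1 to 3, and PIC+TBHQ replicates 1 and 2), with values of 0.06 to 0.08. Aldoa, the aldolase of this pathway, rose with TBHQ before LPS (0.12, FDR = 0.0015) and before PIC (0.11, FDR = 0.00354), the latter lost without PIC replicate 3 (0.08). Gpi1, the isomerase after hexokinase, rose with TBHQ before LPS (0.11, FDR = 0.0167), a call lost without LPS replicate 2 (0.07) or LPS+TBHQ replicate 3 (0.10).

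Gapdh (ENSMUSG00000057666, chromosome 6, 125138678 to 125143430) encodes the dehydrogenase of glyceraldehyde 3-phosphate and is often used as a reference transcript. Its counts were 579, 573 and 578 in the control, 594, 522 and 536 in TBHQ and 2765, 707 and 737 in LPS. They were 715, 3116 and 2072 in LPS+TBHQ, 955, 906 and 7278 in PIC and 797, 3296 and 4469 in PIC+TBHQ. In FPKM these were 9.13, 8.51 and 8.28 in the control, 47.1, 11.9 and 12.5 in LPS and 16.9, 15.8 and 104 in PIC. In each condition with a stimulus 1 or 2 libraries were several-fold above the rest, while the control and TBHQ libraries were even. The largest ratio was 8.03-fold in PIC, taken from counts that were not scaled for depth. The standard deviation of its log2 CPM within conditions was 1.05, against a median of 0.0616 over the 5994 genes with a mean of at least 500 counts, of which 1 was larger, and 0.0287 to 0.112 over 26 other members.

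Gapdh passed the threshold in LPS (log2FC 1.45 ± 0.649, FDR = 0.0352) and PIC (2.41 ± 0.889, FDR = 3.0e-04) against the control, but the value in PIC fell to 0.92 without PIC replicate 3 and in LPS to 0.50 without LPS replicate 1, both without a call. The call in LPS was also lost without control replicate 1 (1.49), 2 (1.44) or 3 (1.43), with DESeq2 (1.46) and with limma (1.08 and 1.14), and that in PIC with limma (1.71 and 1.80). In PIC+TBHQ against PIC it was -0.02 and became 1.47, with a call, without PIC replicate 3. In PIC against LPS it was 0.95 and passed without LPS replicate 1 (1.92), PIC replicate 1 (1.34) or PIC replicate 2 (1.36), but it was -0.55, without a call, without PIC replicate 3. Of its transcript, 27.8% of the words of 50 bases also occur in another gene, and the counts of the genes that hold them were not added to it. What made its counts uneven was not tested. Without Gapdh, the median of the enzymes was 0.13 in LPS and 0.34 in PIC, and 13 of 13 rose in PIC with TMM factors.

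**Figure D3:**
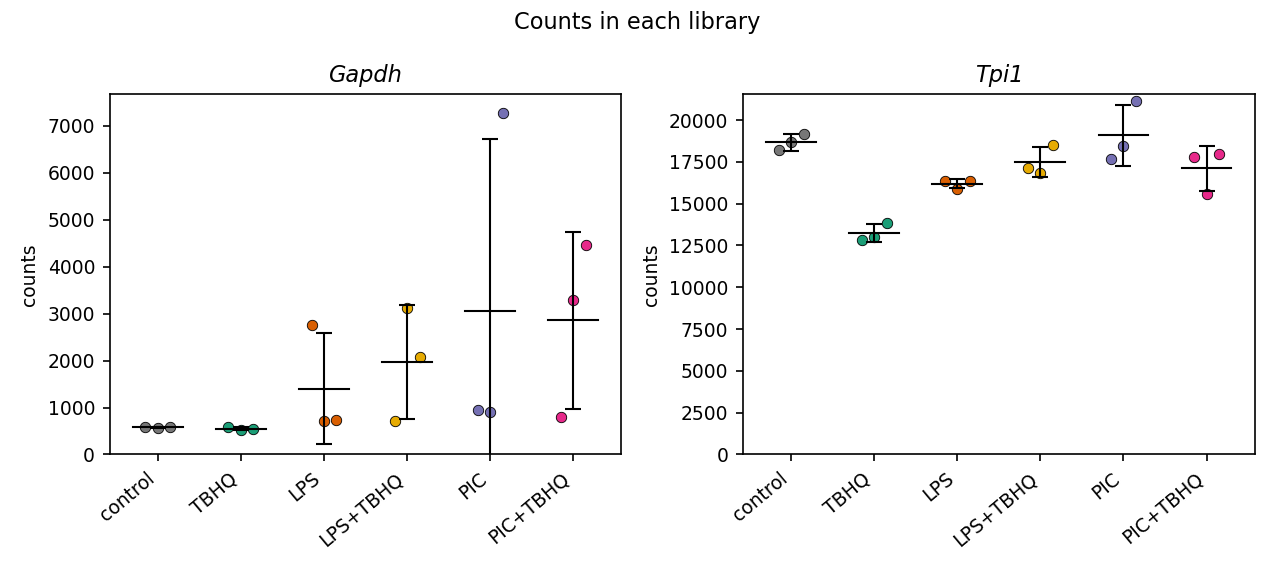
Counts of Gapdh and, for comparison, of Tpi1 in each library, with lines for the mean and bars for the standard deviation (n = 3). With total library size as the scaling, Tpi1 in PIC against the control turns from 0.14 to -0.07 and Gapdh in PIC+TBHQ against PIC from -0.02 to 0.05.

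Hif1a (ENSMUSG00000021109, chromosome 12, 73948149 to 73994304) encodes the regulated subunit of HIF-1, which is controlled mainly through the stability of the protein, and protein was not measured here. Its levels were 22.2, 23.4 and 23.8 FPKM in the control, 26.7, 25.1 and 25 in TBHQ and 23, 25.4 and 23 in LPS. They were 26.6, 26.1 and 24.2 FPKM in LPS+TBHQ, 28.1, 26.3 and 30.1 in PIC and 25.6, 26.4 and 25.8 in PIC+TBHQ. The PIC libraries lay above the control, LPS overlapped the control, and with TBHQ the libraries of both stimuli came to similar levels. The separation of PIC from the control depended on the constant in the deposited FPKM, which was 1.11 to 1.12 in PIC and 0.943 to 0.951 in the control. Hif1a rose in PIC (log2FC 0.26 ± 0.0621, FDR = 1.1e-05), a call lost with total library size, and had 0.03, FDR = 0.626 in LPS, a value that turned to -0.06 with total library size. It also rose in TBHQ alone (0.14 ± 0.0435, FDR = 0.0225), a call lost with limma (0.14), at an FDR below 0.01, and without TBHQ replicate 1 (0.11) or control replicate 1 (0.11). With TBHQ before LPS it had 0.11, FDR = 0.111, which passed without LPS replicate 2 (0.16) or LPS+TBHQ replicate 3 (0.15) and with total library size. With TBHQ before PIC it had -0.11, FDR = 0.0853, which passed with RLE factors (-0.12), with a mean of at least 50 counts (-0.13), and without LPS replicate 2 (-0.12), LPS replicate 3 (-0.12) or PIC replicate 2 (-0.17).

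Egln1 encodes PHD2, the prolyl hydroxylase that is the main oxygen sensor of HIF-1 and itself a HIF-1 target. Its mean levels were 9.63 FPKM in the control, 12.5 in LPS, 7.42 in LPS+TBHQ, 13.2 in PIC, 9.09 in PIC+TBHQ and 7.07 in TBHQ. Egln1 rose in LPS (log2FC 0.37, FDR = 7.4e-05) and PIC (0.44, FDR = 2.5e-06), and fell with TBHQ before LPS (-0.75, FDR = 5.9e-10), before PIC (-0.53, FDR = 4.7e-07) and in TBHQ alone (-0.45, FDR = 2.0e-05).

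All 9 other HIF-1 targets fell with TBHQ before LPS and all 9 before PIC, with medians of -0.49 and -0.57. Of all genes tested, 12.2% fell before LPS and 15.5% before PIC. The call of Adm before LPS was lost without LPS replicate 1, and that of P4ha2 before PIC without PIC replicate 1. In LPS 7 of the 9 rose and 1 fell (24.0% and 24.1% of all genes), with a median of 0.55. In PIC 7 rose and 1 fell too (28.6% and 30.1% of all genes), with a median of 0.79. Bnip3 (ENSMUSG00000078566, chromosome 7, 138492565 to 138511248) encodes a protein of the outer mitochondrial membrane that marks mitochondria for autophagy. It had 26.7, 25.8 and 25.9 FPKM in the control, 46.5, 47 and 44.9 in LPS and 21.8, 19.2 and 20.8 in LPS+TBHQ. In PIC it had 64.1, 64.6 and 67.7, in PIC+TBHQ 25, 27.4 and 27.4 and in TBHQ 8.94, 8.21 and 9.40 FPKM. TBHQ alone gave by far the lowest libraries, and TBHQ before LPS brought every library below the control, while PIC+TBHQ overlapped the control. This overlap depended on the constant in the deposited FPKM, which was 0.943 to 0.951 in the control and 1.05 to 1.06 in PIC+TBHQ. Bnip3 rose in LPS (log2FC 0.81 ± 0.0258, FDR = 5.1e-16) and PIC (1.31 ± 0.0279, FDR = 1.2e-22). It fell by 1.16 with TBHQ before LPS (FDR = 1.8e-19), by 1.29 with TBHQ before PIC (FDR = 5.1e-21) and by 1.56 in TBHQ alone (FDR = 4.3e-21).

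Ndrg1 (ENSMUSG00000005125, chromosome 15, 66801167 to 66841489) is a widely used marker of hypoxia. It had 24.1, 22.3 and 23.9 FPKM in the control, 37.5, 32.6 and 33.3 in LPS and 19.4, 17.9 and 18.7 in LPS+TBHQ. In PIC it had 41.9, 41.9 and 39.4, in PIC+TBHQ 20.9, 19.5 and 19.4 and in TBHQ 10.5, 9.92 and 10 FPKM. Both stimuli alone lay above the control in all libraries, those with TBHQ before a stimulus lay below it, and TBHQ alone was lowest. Ndrg1 rose in LPS (log2FC 0.55 ± 0.0707, FDR = 3.0e-12) and PIC (0.79 ± 0.048, FDR = 6.1e-17), and fell with TBHQ before LPS (-0.88 ± 0.0689, FDR = 4.9e-17), before PIC (-1.03 ± 0.0481, FDR = 6.1e-19) and in TBHQ alone (-1.21 ± 0.0453, FDR = 4.6e-20). No test was made of a stimulus with TBHQ against the control.

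Pdk1 (ENSMUSG00000006494, chromosome 2, 71703568 to 71734202) encodes a kinase that restrains the entry of pyruvate into the mitochondrial cycle, and was the member that fell in LPS, PIC and TBHQ against the control and with TBHQ before both stimuli. It had 8.16, 8.90 and 9.11 FPKM in the control, 8.15, 7.37 and 7.87 in LPS and 6.53, 6.66 and 5.88 in LPS+TBHQ. In PIC it had 7.10, 7.51 and 7.52, in PIC+TBHQ 6.19, 6.10 and 6.19 and in TBHQ 5.20, 5.09 and 5.42 FPKM. The control was highest, LPS and PIC followed close below, and TBHQ alone was lowest. Pdk1 fell in LPS (log2FC -0.17 ± 0.0625, FDR = 0.0089), a call lost without LPS replicate 2 (-0.12) or control replicate 3 (-0.14), and in PIC (-0.26 ± 0.0545, FDR = 1.0e-04). It fell further with TBHQ before LPS (-0.30 ± 0.0683, FDR = 9.0e-05) and before PIC (-0.25 ± 0.0278, FDR = 6.9e-04), and in TBHQ alone (-0.74 ± 0.0537, FDR = 6.5e-13).

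Of the other targets, Vegfa, the growth factor of blood vessels, rose by 0.98 in LPS and 1.31 in PIC and fell by 0.35 and 0.49 with TBHQ before them. P4ha1, a subunit of the enzyme that hydroxylates proline in collagen, rose by 0.44 and 0.64 and fell by 0.31 and 0.32. Kdm3a, a histone demethylase, rose by 0.34 and 0.43 and fell by 0.49 and 0.57. Mxi1, a repressor that competes with Myc for its partner, passed the threshold in neither stimulus (0.01 in LPS and 0.04 in PIC). These values turned to -0.08 and -0.18 with total library size, where Mxi1 passed as lower in PIC. With TBHQ before the stimuli Mxi1 fell by 0.34 and 0.35. Adm, the precursor of the peptide adrenomedullin, had 4 to 73 counts per library and the largest log2FC in both stimuli (1.85 ± 0.515, FDR = 8.2e-05 in LPS and 2.91 ± 0.406, FDR = 2.6e-09 in PIC). Its summed counts, scaled to library totals, were 6.49-fold those of the control in PIC (95% interval of the counting error 4.36 to 10). With TBHQ they were 0.468 of those in PIC (0.360 to 0.604), and its fall in LPS+TBHQ (-1.31) was lost without LPS replicate 1 (-0.89).

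P4ha2, a second subunit of the collagen enzyme, had 13, 14 and 8 counts in the control libraries and 1, 0 and 3 in TBHQ, so that its log2FC of -3.07 ± 0.433 (FDR = 3.8e-04) rests on few counts. The ratio of summed counts, TBHQ over control, was 0.110, with a 95% interval of the counting error of 0.0283 to 0.306, which leaves out the variation between replicates. The call was lost on log2(FPKM + 1) in limma (-0.14), where values near 0 are compressed by construction. P4ha2 rose by 1.42 in LPS and 1.96 in PIC and fell by 1.54 with TBHQ before LPS and by 1.23 with TBHQ before PIC, the latter lost without PIC replicate 1 (-0.94).

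The glycolytic enzymes and the other HIF-1 targets are given here side by side. In TBHQ alone 10 of 14 enzymes and 8 of 9 other targets fell and 0 of either rose (Pkm passed as higher in some alternatives). Their medians were -0.20 and -0.62, and of all genes 14.8% fell and 14.2% rose. Before LPS the medians were -0.04 for the enzymes and -0.49 for the other targets, and before PIC they were -0.12 and -0.57 (-0.05 and -0.50 with total library size), with that of all genes at 0.00 and 0.01. Without the members that share words with other genes, a step chosen after seeing the data, the median of the enzymes was -0.14 before LPS and -0.19 before PIC. In the stimuli alone the medians were 0.17 and 0.55 in LPS (0.09 and 0.46 with total library size) and 0.35 and 0.79 in PIC (0.13 and 0.57). Summed over the 14 enzymes, the level was 4548 ± 121 FPKM (SD, n = 3) in the control, 4962 ± 180 in LPS and 5023 ± 72.6 in LPS+TBHQ, and 5644 ± 56.3 in PIC and 5460 ± 69.6 in PIC+TBHQ. Summed over the 9 other targets, it was 122 ± 1.99 FPKM in the control, 178 ± 8.63 in LPS and 116 ± 1.61 in LPS+TBHQ, and 219 ± 0.657 in PIC and 132 ± 0.873 in PIC+TBHQ. In TBHQ alone the sums were 3910 ± 82.9 and 70.7 ± 3.16 FPKM. These sums are carried by the most abundant genes of each list, and by the constant in the deposited FPKM, which was 0.943 to 0.951 in the control, 1.11 to 1.12 in PIC and 1.05 to 1.06 in PIC+TBHQ. The constant was also divided out, a step chosen after seeing the data, which leaves a scaling by total counts. The enzymes then had 4804 ± 107 in the control, 4906 ± 152 in LPS, 5047 ± 56.5 in LPS+TBHQ, 5068 ± 42.6 in PIC and 5182 ± 56.9 in PIC+TBHQ. With this scaling PIC+TBHQ went from below PIC to above it. The other targets then had 129 ± 2.09 in the control, 176 ± 7.92 in LPS, 116 ± 1.64 in LPS+TBHQ, 196 ± 0.728 in PIC and 125 ± 1.07 in PIC+TBHQ. The difference between the 2 lists was not tested.

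In PIC against LPS, 21 of 30 members were higher and 0 lower (14.9% and 12.8% of all genes), 12 of the 14 enzymes and 5 of the 9 other targets among them, with medians of 0.19 and 0.24 (0.06 and 0.11 with total library size). Scaled by total library size, 12 members were higher and 4 lower, all genes split into 985 higher and 4373 lower instead of 2035 and 1752, and Hk3, Gpi1, Aldoa and Pgam1 turned from 0.03, 0.12, 0.10 and 0.11 to -0.10, -0.01, -0.03 and -0.02. Of the larger differences, Slc2a1 was higher in PIC by 0.41, FDR = 4.0e-10, Pfkfb3 by 0.46, FDR = 3.1e-07 and Bnip3 by 0.50, FDR = 2.0e-10. LPS and PIC were given at 1 dose and time each, so that stimulus and dose cannot be told apart.

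The effect of TBHQ was then compared between the stimuli. The difference between its effect in PIC and its effect in LPS passed the threshold in edgeR for 0 of 30 members, higher or lower, against 0.825% of all genes higher and 1.01% lower. The unadjusted p was below 0.05 for 4 members, Hif1a, Egln1, Ndrg1 and Pgk1. DESeq2 called 1 member, Hif1a (-0.23), edgeR without a filter on low counts called 2, Gapdh (-0.28) and Hif1a (-0.23), and limma called 0. The value of Gapdh (-0.26 in the filtered test) ranged from -1.22 without LPS replicate 1 to 1.23 without PIC replicate 3, so that its direction depended on single libraries. Hif1a had the smallest FDR (-0.21 ± 0.085, FDR = 0.106), and it passed without LPS replicate 2 (-0.28) or PIC replicate 2 (-0.27). With TBHQ it had 0.11 before LPS and -0.11 before PIC, in FPKM a slight rise and a slight fall to about the same level. Over all genes this difference gave 113 genes higher and 138 lower with TMM, 235 and 74 with total library size and 102 and 246 in DESeq2. Median log2FC of the difference was -0.06 for the enzymes and -0.01 for the other targets. The latter ranged from -0.10 to -0.01 when leaving out a library and turned to 0.03 with total library size. It was -0.08 on log2(FPKM + 1) in limma and -0.09 with a mean of at least 50 counts. Whether TBHQ acted alike in both stimuli cannot be told from calls that missed the threshold.

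The wider pathways held 37 other glycolysis genes, 28 of them tested, and 48 other genes of the HIF pathway or known hypoxia targets, 44 of them tested. The other glycolysis genes went both ways, with 7 higher and 10 lower in LPS (24.0% and 24.1% of all genes) and 8 and 12 in PIC (28.6% and 30.1%). With TBHQ before LPS 5 were higher and 2 lower (11.7% and 12.2%), before PIC 4 and 6 (15.8% and 15.5%), and in TBHQ alone 0 and 9 (14.2% and 14.8%). Scaled by total library size they were 4 and 13 in LPS, 8 and 15 in PIC, 6 and 2 with TBHQ before LPS, and 7 and 3 with TBHQ before PIC. The 3 genes with the largest changes are given for each stimulus against the control and for TBHQ before each stimulus. They were taken from the genes passing the threshold with a mean of at least 50 counts. Arrdc4, an arrestin-like relative of Txnip that holds back glucose uptake, rose in LPS (log2FC 1.16, FDR = 2.9e-16) and PIC (1.86, FDR = 3.9e-23). Slc16a7, the lactate and pyruvate carrier MCT2, fell in LPS (-0.99, FDR = 1.0e-08) and PIC (-1.17, FDR = 2.0e-10). Eno2, the second enolase, had 11.6, 11.7 and 12.3 FPKM in the control, 23.5, 21.2 and 21.2 in LPS, 13, 12.2 and 12 in LPS+TBHQ and 5.49, 5.13 and 4.51 in TBHQ. It rose in LPS (0.88, FDR = 3.2e-15) and PIC (1.38, FDR = 1.8e-21) and fell with TBHQ before LPS (-0.83, FDR = 7.0e-14), before PIC (-0.91, FDR = 1.9e-15) and alone (-1.23, FDR = 1.4e-16), where Eno1 fell by 0.19 in TBHQ alone.

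Slc2a6, the glucose transporter family member GLUT6, was higher with TBHQ before LPS (0.44, FDR = 1.2e-09) and before PIC (0.44, FDR = 4.2e-10), opposite to Slc2a1, and lower in TBHQ alone (-0.32, FDR = 2.0e-06). Its levels were 33.2, 31.4 and 36.1 FPKM in LPS and 45, 45.7 and 46.1 in LPS+TBHQ, with no overlap. Tigar, a phosphatase that lowers fructose 2,6-bisphosphate, was also higher with TBHQ before LPS (0.34, FDR = 3.7e-04) and before PIC (0.41, FDR = 4.1e-05), opposite to Pfkfb3. Among the other glycolysis genes 1, Txnip, passed the threshold for the difference between the effects of TBHQ in PIC and LPS (-0.27, FDR = 0.01), a call lost without LPS+TBHQ replicate 2 (-0.23). It was singled out after its value was seen.

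Of the 44 other HIF pathway genes and hypoxia targets, 22 rose and 5 fell in LPS (24.0% and 24.1% of all genes), and 29 rose and 5 fell in PIC (28.6% and 30.1%). In TBHQ alone 6 rose and 21 fell (14.2% and 14.8%). With TBHQ before LPS 4 rose and 27 fell (11.7% and 12.2%), and before PIC 1 rose and 26 fell (15.8% and 15.5%). Medians were 0.21 in LPS, 0.43 in PIC, -0.22 in TBHQ, -0.23 with TBHQ before LPS and -0.26 with TBHQ before PIC. In LPS 18 rose and 8 fell with total library size, in PIC 21 rose and 16 fell, with TBHQ before LPS 4 rose and 23 fell, and with TBHQ before PIC 3 rose and 23 fell. Ddit4, an inhibitor of the growth kinase complex mTORC1, rose in LPS (log2FC 2.77, FDR = 7.8e-22) and PIC (3.01, FDR = 1.7e-23) and fell with TBHQ before LPS (-1.38, FDR = 1.8e-14) and PIC (-1.02, FDR = 1.2e-11). Hilpda, a protein of lipid droplets, and Rsbn1 followed the same order, with rises of 2.37 and 2.58 in PIC and falls of 1.03 and 0.84 with TBHQ before PIC. Ak4, a mitochondrial adenylate kinase, had 16.9, 14.5 and 14.7 FPKM in the control and 5.49, 4.51 and 5.51 in TBHQ, where it fell (-1.57, FDR = 5.8e-19), and it also fell with TBHQ before LPS (-0.88, FDR = 6.2e-14) and PIC (-0.83, FDR = 1.1e-13).

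Several members share sequence with copies elsewhere in the genome, which bears on where reads are counted. Of the words of 50 bases in their transcripts, 72.2% in Eno1, 68.0% in Pgk1, 62.4% in Bnip3, 41.5% in Pgam1, 34.4% in Pkm and 27.8% in Gapdh also occur in another gene. Leaving these 6 members out, a step chosen after seeing the data, gave medians of the enzymes of -0.14 with TBHQ before LPS and -0.19 before PIC, and a median of the other targets of -0.53 with TBHQ before PIC. The symbol Aldoa occurs in the files for a second gene (ENSMUSG00000114515) with a mean of 20.6 counts, which was kept apart from the counts above and fell in PIC against the control (-1.24, FDR = 0.00223).

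Finally, the promoters of the members were read for the core letters known for HIF-1, because the members include its known targets. Sequences of 300 bases, 250 before and 50 after the start of the transcript, were taken from RefSeq (GRCm38.p6), where 30 of the 31 members had 44 promoters and Ndrg1 had none. Positions of the promoters are those of GRCm38.p6, while the positions of genes given above are those of the authors' files, which differ from that annotation, so that the coordinates cannot be compared. The letters ACGTG, on either strand, were in 24 of the 44 (54.5%), against 19.6% of 32851 promoters of all genes. GCGTG was in 50% against 32.4%, and CACGTG, which holds ACGTG on both strands, in 11.4% against 7.15%. The median number of CpG was 22 in the promoters of the members and 7 in all promoters, and its part in these shares was not tested. By role, ACGTG was in 10 of 21 promoters of enzymes, 5 of 6 of transport and regulation, 3 of 3 of oxygen sensing and 6 of 14 of the other targets. A match is a description of the letters only. Adm, Kdm3a, Pfkl and Pfkp, which rose with both stimuli and fell with TBHQ before them, had no ACGTG in any promoter. Below are the promoters of 3 members that rose with both stimuli and fell with TBHQ before them, Slc2a1 (chr4:119108495-119108794, plus strand), Pfkfb3 (chr2:11502041-11502340, minus strand, 1 of its 2 promoters, both with ACGTG, and shown as an example) and Bnip3 (chr7:138909457-138909756, minus strand), and of Slc16a1 (chr3:104638414-104638713, plus strand), which went the other way and holds the letters too. Capitals mark ACGTG on either strand, so that CACGTG in capitals is a match on both.
Slc2a1: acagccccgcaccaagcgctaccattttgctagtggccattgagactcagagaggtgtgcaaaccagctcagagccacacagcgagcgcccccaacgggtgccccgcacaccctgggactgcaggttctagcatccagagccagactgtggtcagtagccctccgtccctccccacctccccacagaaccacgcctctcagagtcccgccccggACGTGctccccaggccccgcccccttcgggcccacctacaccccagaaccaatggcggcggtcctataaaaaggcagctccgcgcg
Pfkfb3: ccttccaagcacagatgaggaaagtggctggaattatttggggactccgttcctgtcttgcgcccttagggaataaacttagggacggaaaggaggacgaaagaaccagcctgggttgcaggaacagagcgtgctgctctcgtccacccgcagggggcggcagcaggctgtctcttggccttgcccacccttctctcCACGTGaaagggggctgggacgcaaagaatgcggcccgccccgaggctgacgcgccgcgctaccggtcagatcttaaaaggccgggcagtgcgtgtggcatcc
Bnip3: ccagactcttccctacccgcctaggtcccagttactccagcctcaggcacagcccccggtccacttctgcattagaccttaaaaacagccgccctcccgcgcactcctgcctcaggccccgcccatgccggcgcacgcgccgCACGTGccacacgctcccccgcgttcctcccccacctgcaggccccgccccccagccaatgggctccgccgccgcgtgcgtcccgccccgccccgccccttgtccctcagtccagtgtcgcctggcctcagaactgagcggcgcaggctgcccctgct
Slc16a1: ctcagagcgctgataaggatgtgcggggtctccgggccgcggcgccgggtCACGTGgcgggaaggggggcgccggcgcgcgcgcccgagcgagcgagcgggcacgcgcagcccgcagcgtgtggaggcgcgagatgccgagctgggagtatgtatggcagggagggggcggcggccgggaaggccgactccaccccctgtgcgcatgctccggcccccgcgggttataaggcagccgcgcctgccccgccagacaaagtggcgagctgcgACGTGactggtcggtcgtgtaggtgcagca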

How the data were processed

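The authors deposited a count and an FPKM value for every gene and library. According to the submitters' processing notes, paired-end reads of strand-specific poly(A) libraries were aligned with HISAT2 2.0.5 to the mouse genome (named GRCm38/mm39), assembled with StringTie 1.3.3b and counted with featureCounts 1.5.0-p3, and the authors derived FPKM from the count, the gene length and the depth. FPKM recomputed with the total counts of each library differed from the deposited FPKM by 1 constant per library (0.943 to 1.12). The constant was low where the TMM factor was high. It was 0.943 to 0.951 in the control, with TMM factors of 1.06 to 1.07. In PIC it was 1.11 to 1.12, with TMM factors of 0.911 to 0.915. Libraries held 14423390 to 18851626 counts (median 15742337), so that 3 counts were 0.159 to 0.208 CPM (counts per 1e6).

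Counts were tested with the quasi-likelihood test of edgeR 4.0.16 (R 4.3.3) with TMM factors, filterByExpr and 1 coefficient per condition over 18 libraries, with Benjamini-Hochberg adjustment over 13691 genes of 56748 listed, 27701 of them with counts. The threshold was an FDR below 0.05, and for comparisons with the control also an FDR below 0.01 with an absolute log2FC above 2. Levels are FPKM. Standard errors are those of differences in mean log2 CPM with a prior count of 2.

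The alternatives were DESeq2 1.42.0, RLE factors, total library size, no filter, a mean of at least 50 counts, the compared conditions only, a replicate block, limma 3.58.1 on log2(FPKM + 1) and log2(FPKM + 0.1), an FDR below 0.01, leaving out each library, adding the counts of pseudogenes named after a member (for Gapdh 3 pseudogenes with 29, 25 and 4 counts over all libraries), and counting Egln1 and Egln3 among the other HIF-1 targets. Adding Eno1b to Eno1, leaving out Gapdh, leaving out members with over 25% shared words of 50 bases and dividing the constant out of summed FPKM were chosen after seeing the data. Members and lists were chosen with earlier results of these data known. All members are reported. Values of each library are given for the 2 highest and 2 lowest members passing the threshold with a mean of at least 50 counts in LPS and PIC against the control and with TBHQ before each, for Hif1a and Gapdh, and for the member with the smallest FDR for the difference between TBHQ effects. Of each wider list, genes among the 3 with the largest absolute log2FC by the same rule are named, and 1 gene that met it is not reported here. Tables were made with pandas 2.3.3 under Python 3.11.15, figures with matplotlib 3.10.9, and exact intervals with scipy 1.17.1, with arrays held in numpy 2.4.6. The scripts were tested on simulated data.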

Additional observations from a re-analysis of the deposited data

How the results depend on the processing

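Members higher in TBHQ against the control numbered 1, and 2 with DESeq2, with the compared conditions only and with no filter, 0 with limma on either scale and at an FDR below 0.01, and 1 to 3 when leaving out a library. Scaled by total library size, members lower were 5 in LPS (main 2; 1 to 2 when leaving out a library) and 6 in PIC (main 2), and in PIC against LPS 12 were higher (main 21) and 4 lower (main 0; 0 to 1 when leaving out a library). For the difference between TBHQ effects, members lower were 1 with DESeq2 and 2 with no filter (main 0; 0 to 1 when leaving out a library). Medians of the enzymes with total library size were 0.09 in LPS, 0.13 in PIC, -0.05 in PIC+TBHQ against PIC and 0.06 in PIC against LPS; leaving out a library gave 0.34 to 0.38 in PIC. Leaving out members with over 25% shared words gave -0.14 in LPS+TBHQ against LPS and -0.19 in PIC+TBHQ against PIC. Medians of the other HIF-1 targets on log2(FPKM + 1) in limma were -0.47 in TBHQ, 0.43 in LPS, 0.65 in PIC, -0.32 in LPS+TBHQ against LPS, -0.46 in PIC+TBHQ against PIC and -0.08 for the difference between TBHQ effects. With a mean of at least 50 counts they were 0.46, 0.67, -0.36, -0.51 and -0.09 for the last 5 of these, and with total library size 0.46 in LPS, 0.57 in PIC, -0.50 in PIC+TBHQ against PIC and 0.11 in PIC against LPS. Counting Egln1 and Egln3 among them gave 0.72 in PIC and -0.62 in LPS+TBHQ against LPS, and leaving out members with over 25% shared words gave 0.72 in PIC and -0.53 in PIC+TBHQ against PIC. Leaving out a library gave -0.73 to -0.55 in TBHQ, -0.64 to -0.52 in PIC+TBHQ against PIC, 0.21 to 0.31 in PIC against LPS and -0.10 to -0.01 for the difference between TBHQ effects. Values with total library size turned negative in PIC against the control for Gpi1 (-0.06), Aldoa (-0.12), Tpi1 (-0.07), Pgam1 (-0.10), Pkm (-0.05) and Mxi1 (-0.18), in PIC against LPS for Hk3 (-0.10), Gpi1 (-0.01), Aldoa (-0.03) and Pgam1 (-0.02), and in LPS for Ldha (-0.07). Gapdh in PIC+TBHQ against PIC turned to 1.47 without PIC replicate 3, with a range of -0.43 to 1.47 when leaving out a library. With the replicate block, 26 members were higher in PIC, as without it. Correlations of the deviations from condition means were -0.0444 to 0.0645 between libraries of the same replicate number and -0.0518 to 0.051 between others. Of the single-gene results of members, 2438 were the same, 20 stronger, 34 weaker and 11 reversed over the alternatives other than leaving out a library (a change of sign counts as reversed only where the value passed the threshold with or without the alternative, and other changes of sign are among the same), and 3727, 23, 29 and 1 when leaving out a library. The cause of these changes was not tested.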
